A study of Mus musculus with 12 samples.

Results

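The nuclear genes of respiratory complexes III and IV, of cytochrome c and of the ATP synthase were taken as the rows whose symbol begins with Uqcr, Cox4, Cox5, Cox6, Cox7, Cox8 or Atp5, or is *Cyc1* or *Cycs*, with at least 10 counts in 3 or more hearts. The count table listed 44 such symbols among 19308 genes, and 43 of them met the count minimum. The exception was *Cox7b2*, an isoform best known from testis, with at most 3 counts in any heart. Just inside the minimum stood *Cox6b2*, with 10 to 44 counts per heart. The 43 genes were 9 of complex III, 1 of cytochrome c, 15 of complex IV, 16 of the ATP synthase, and 2 factors associated with the complexes, *Cox7a2l* and *Atp5s*. All 43 were among the 14094 genes tested.

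RNA was sequenced from 12 hearts of male C57BL/6 mice in 4 groups of 3: WT sham, F3-KO sham, WT TAC and F3-KO TAC. F3-KO mice carry a *Fabp3*-null allele made with CRISPR-Cas9 in the germ line, so every tissue lacks the intact gene, and *Fabp3* encodes the fatty acid binding protein of heart muscle. In transverse aortic constriction (TAC) the aortic arch is narrowed to load the left ventricle with pressure, and sham mice had the operation without the narrowing. The mice were operated at 8 weeks of age and the hearts were taken 1 week later. Each sample is a heart, so that fewer cells of a type and less RNA per cell cannot be told apart in the values below.

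The complexes form the last part of oxidative phosphorylation in the inner mitochondrial membrane. Complex III hands electrons from ubiquinol to cytochrome c, complex IV passes them on to oxygen, both pump protons, and the ATP synthase makes ATP as protons flow back through its membrane ring. Part of complexes III and IV and of the ATP synthase is encoded by mitochondrial DNA and the rest by nuclear genes. Heart and skeletal muscle are rich in these complexes and use their own isoforms of several small complex IV subunits, among them *Cox6a2*, *Cox7a1* and *Cox8b*, in place of the ubiquitous *Cox6a1*, *Cox7a2* and *Cox8a*.

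For 33 of the 43 genes RefSeq gave a promoter window of 300 bases, from 250 before to 50 after the transcription start (build GRCm38.p6). These genes had 36 windows, and for a gene with several only the window lowest on the chromosome was used. On the minus strand that is the most downstream start. The windows of *Atp5a1*, *Atp5mpl*, *Cox4i1*, *Cox4i2*, *Cox6a2*, *Cox6c*, *Cyc1*, *Uqcrb*, *Uqcrc2* and *Uqcrq* were not used here. The windows of both isoforms of subunits 7a and 8 are shown because these pairs carry the comparison of muscle with ubiquitous isoforms. Each is written 5′ to 3′ on the strand of its gene, and capitals mark CpG dinucleotides. *Cox7a1* is at chr7:30183921-30184220 on the plus strand, *Cox7a2* at chr9:79759804-79760103 on the minus strand, *Cox8b* at chr7:140900397-140900696 on the minus strand and *Cox8a* at chr19:7217567-7217866 on the minus strand.
Cox7a1: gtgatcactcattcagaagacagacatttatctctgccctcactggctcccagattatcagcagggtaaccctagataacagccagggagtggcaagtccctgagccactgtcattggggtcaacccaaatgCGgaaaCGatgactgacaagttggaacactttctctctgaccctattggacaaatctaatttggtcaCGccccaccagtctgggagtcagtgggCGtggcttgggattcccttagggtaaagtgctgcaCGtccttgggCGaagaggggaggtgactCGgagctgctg
Cox7a2: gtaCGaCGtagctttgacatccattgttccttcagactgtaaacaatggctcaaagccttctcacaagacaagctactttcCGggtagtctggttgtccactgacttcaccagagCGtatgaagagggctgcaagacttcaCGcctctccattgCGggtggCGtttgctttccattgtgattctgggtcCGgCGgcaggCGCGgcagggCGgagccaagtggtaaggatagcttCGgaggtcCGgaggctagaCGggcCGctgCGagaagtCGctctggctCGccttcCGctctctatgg
Cox8b: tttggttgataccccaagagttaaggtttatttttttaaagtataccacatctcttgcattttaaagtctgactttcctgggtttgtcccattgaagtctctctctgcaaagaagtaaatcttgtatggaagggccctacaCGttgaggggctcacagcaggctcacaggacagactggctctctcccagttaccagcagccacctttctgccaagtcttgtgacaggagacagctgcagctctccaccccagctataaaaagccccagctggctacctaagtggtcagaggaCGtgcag
Cox8a: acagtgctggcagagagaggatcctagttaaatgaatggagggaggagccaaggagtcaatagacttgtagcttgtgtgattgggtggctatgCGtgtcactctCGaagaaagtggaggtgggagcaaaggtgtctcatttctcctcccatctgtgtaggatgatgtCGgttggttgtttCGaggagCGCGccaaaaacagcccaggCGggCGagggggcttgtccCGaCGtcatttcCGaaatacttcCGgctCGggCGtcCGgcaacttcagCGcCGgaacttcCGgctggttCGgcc

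The muscle isoforms *Cox7a1* and *Cox8b* had fewer CpG dinucleotides in this window, 7 and 2, than their ubiquitous partners *Cox7a2* (20) and *Cox8a* (19). *Cox6a1*, the ubiquitous partner of *Cox6a2*, had 32, but without a window for *Cox6a2* that pair was not compared. Over the 33 genes the median was 19, and over all 32851 mouse promoter windows it was 7, with 23.3% of all windows holding as few as *Cox8b* or fewer and 51.4% as few as *Cox7a1* or fewer. The other members at the low end of the 33 were *Cox7b* (5), held here as a ubiquitous form, and *Cox6b2* (10). The letters TATAAA, searched on both strands, were in 2 of the 33 windows, those of *Cox8b* and *Atp5l*, and in 13.6% of all windows. CCGGAAG, the core of the site of ETS factors such as GABP, was in 10 of 33 windows (30.3%) and in 8.86% of all, with 2 matches in *Cox8a* and none in *Cox7a1*, *Cox7a2* or *Cox8b*. The core of the NRF1 site, GCGC repeated after a gap of 2 letters, was in 8 windows (24.2%, against 6.23% of all), AAGGTCA, the site of estrogen-related receptors, in 4 (12.1%, against 4.72%), and AAGATGGC, a form of the YY1 site, in 3 (9.09%, against 2.75%). The E-box letters CANNTG were about as common here (72.7%) as in all windows (72.3%). The ETS and NRF1 letters themselves contain CpG, of which these windows held more (median 19 against 7). The shares were not compared with windows of like CpG content. These matches describe letters and do not show that a factor binds.

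The libraries held 10424334 to 14372011 estimated counts, and 3 counts were worth 0.209 to 0.288 CPM (a gene’s counts scaled by the size of its library, the unit of all levels here). The subunit genes took up 2.37% to 3.84% of the counts of a heart. *Fabp3*, the targeted gene, was at 1002 to 1143 CPM in the 6 F3-KO hearts and at 2117 to 3064 CPM in the 6 WT hearts, so every F3-KO heart lay below every WT heart and the deletion left counts on the gene. Heart muscle markers were high in every library, with 10 cardiomyocyte markers summing to 56926 to 85140 CPM, and none of the 10 was at 0. Replicates of a group differed by more than sampling noise in all 12 pairs, with a chi-square statistic of 10.4 to 84.0 per degree of freedom. A gene was called at a Benjamini-Hochberg adjusted p under 0.05 in edgeR's quasi-likelihood test over all tested genes. A nominal (unadjusted) p of 0.05 or less is given beside it as a looser threshold. The 4 comparisons share their groups pairwise and are therefore not independent of each other.

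Levels of different genes were compared as CPM per kilobase of transcript (GENCODE M21 lengths of principal transcripts, the shortest and the longest listed) over the 3 WT sham hearts. With either length *Cox6a2* was the highest at 3946 ± 368 (SD, n = 3), before *Atp5b*, the catalytic beta subunit of the ATP synthase, at 3619 ± 435. These values differed by less than the spread between hearts. *Cox4i1*, the subunit 4 isoform found in most tissues, followed at 1971 ± 89.9 with the shortest and 1919 ± 87.6 with the longest transcript. The muscle isoforms exceeded their partners per length by more than the SD between hearts: *Cox6a2* stood over *Cox6a1* at 194.6 ± 11.1, *Cox7a1* at 1227 ± 467 over *Cox7a2* at 428.1 ± 67.7, and *Cox8b* at 1111 ± 326 over *Cox8a* at 328.5 ± 22.6. At the bottom, with either length, were *Atp5s*, *Cox4i2*, *Cox6b2*, *Atp5g2* and *Atp5a1*. For *Atp5g1* and *Uqcrq* the listed lengths differ so much that no order is given.

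Subunit transcripts were lower after TAC in F3-KO hearts and near sham level after TAC in WT hearts, and none of these single-gene differences passed the adjusted threshold. In the F3-KO groups all 43 genes had a fitted log2 fold change (TAC against sham) below 0, and 47.1% of all tested genes did. The median over the 43 genes was -0.48, or 71.6% of the sham level, beside 0.02 over all tested genes. In WT hearts 16 of 43 genes were below 0, where 50% of all tested genes were, and the median was 0.03 beside 0.00 (-0.043 to 0.16 when single hearts were left out). Between genotypes the median was 0.14 in sham hearts, with 4 genes below 0 (50.8% of all tested genes), and -0.35 after TAC, with 41 genes below 0 (46.9%). With cardiomyocyte marker counts as library size, a scaling described further on, the small medians in WT hearts and between sham hearts changed sign, to -0.15 and -0.051, the -0.48 became -0.12 and the -0.35 became -0.0081. When single hearts were left out, the -0.48 ranged from -0.63 to -0.38 and the -0.35 from -0.51 to -0.23.

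**Figure D1:**
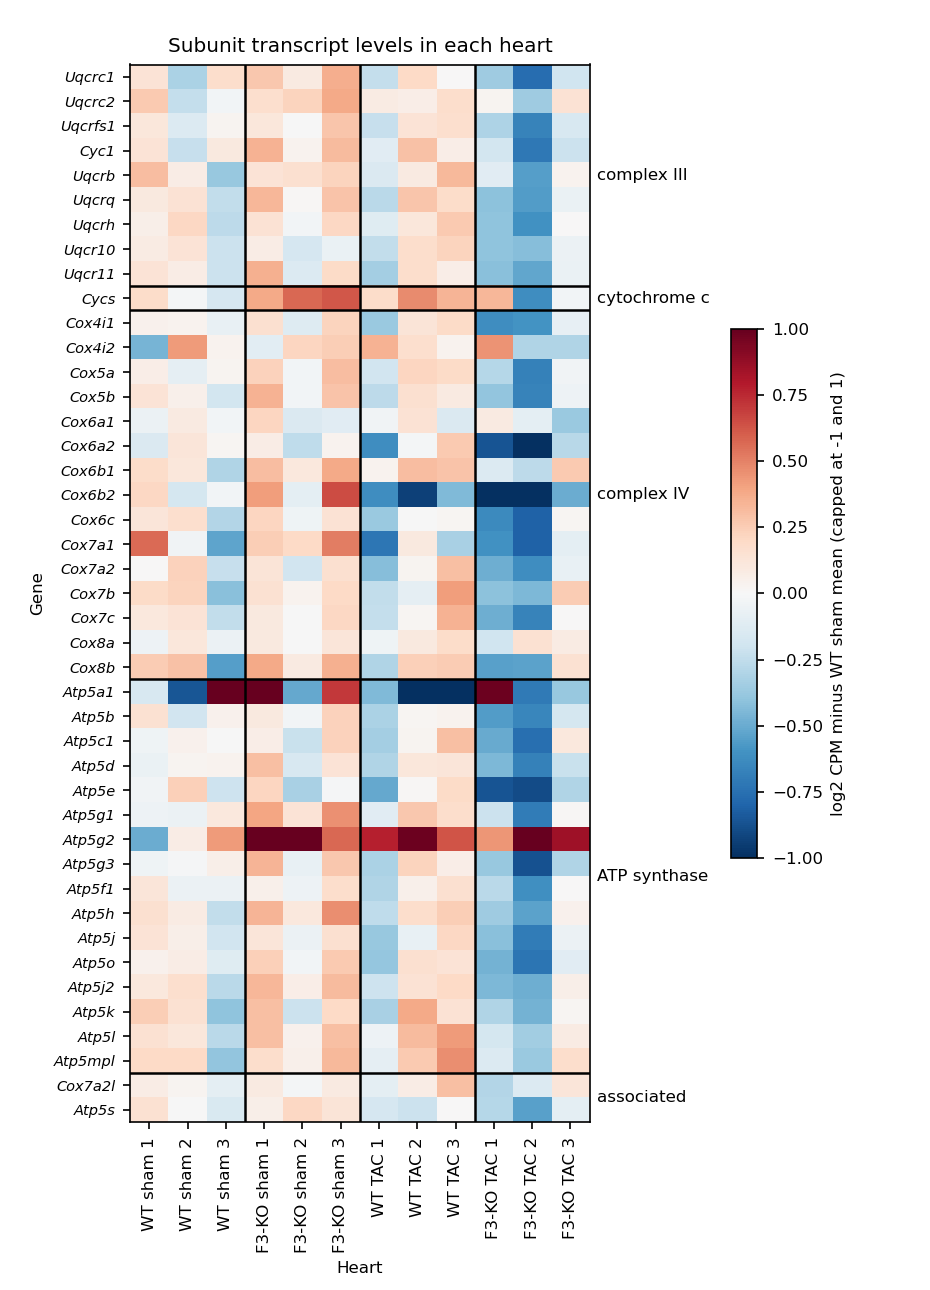
Log2 CPM of each of the 43 genes (rows, grouped by complex) in each of the 12 hearts (columns) minus the mean of the 3 WT sham hearts, with colours capped at -1 and 1. F3-KO TAC hearts 1 and 2 are blue across most rows, WT TAC heart 1 is paler blue, F3-KO TAC heart 3 is close to the sham hearts, and *Atp5g2* and *Atp5a1* stand apart from the other rows.

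Single hearts carried much of this difference. Relative to the WT sham mean, the median over the 43 genes was 0.11, 0.072 and -0.15 in the WT sham hearts and 0.21, -0.022 and 0.24 in the F3-KO sham hearts (log2). In WT TAC hearts it was -0.25, 0.13 and 0.19, and in F3-KO TAC hearts -0.38, -0.61 and -0.050. The first WT TAC heart and the first pair of F3-KO TAC hearts were low, while the third F3-KO TAC heart lay within the range of the WT sham hearts. F3-KO TAC heart 2, the most deeply sequenced library, held the lowest level of the 12 hearts for 33 of the 43 genes. F3-KO TAC heart 1 was below all 3 WT sham hearts for 29 genes, F3-KO TAC heart 3 for 8 and WT TAC heart 1 for 24.

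By edgeR's adjusted p 0 of 43 genes were called in TAC against sham in either genotype, and 0% of all tested genes were. At a nominal p of 0.05 or less no subunit gene differed between TAC and sham in WT hearts (6.28% of all tested genes did in either direction), and by adjusted p neither DESeq2 nor limma-trend called a subunit gene there (0.164% and 0.0071% of the genes adjusted). At the nominal threshold 25 were lower in F3-KO TAC than in F3-KO sham hearts, where 6.47% of all tested genes were lower. Of these 25, 6 were of complex III, 8 of complex IV and 9 of the ATP synthase, and the others were *Cycs* and *Atp5s*. The 3 TAC hearts lay below the 3 sham hearts for 21 genes, where 11.4% of all tested genes did so. DESeq2 called 7 of the 43 lower at an adjusted p under 0.05 (1.11% of the genes it adjusted), namely *Atp5g3*, *Uqcrc1*, *Cox6b2*, *Atp5b*, *Atp5g1*, *Cyc1* and *Atp5d*, and limma-trend called 0 (0.0568% of all tested genes). Without F3-KO TAC heart 3 edgeR called 8 genes lower, *Cox6b2*, *Cox5b*, *Atp5b*, *Atp5o*, *Cox6c*, *Atp5g1*, *Atp5j2* and *Cox6a2*. In that fit it called 778 of all tested genes in either direction, so calls rose far beyond the subunit genes. The count of 25 fell to 9 without F3-KO TAC heart 2 and to 16 without F3-KO TAC heart 1. It fell to 14 without F3-KO sham heart 1 and to 13 without F3-KO sham heart 3. The count of 21 was 38 without F3-KO TAC heart 3 and 33 without F3-KO sham heart 2. Leaving out a heart can only keep or raise that count, so this is no check of it. For these left-out hearts the share of all tested genes is not given.

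**Figure D2:**
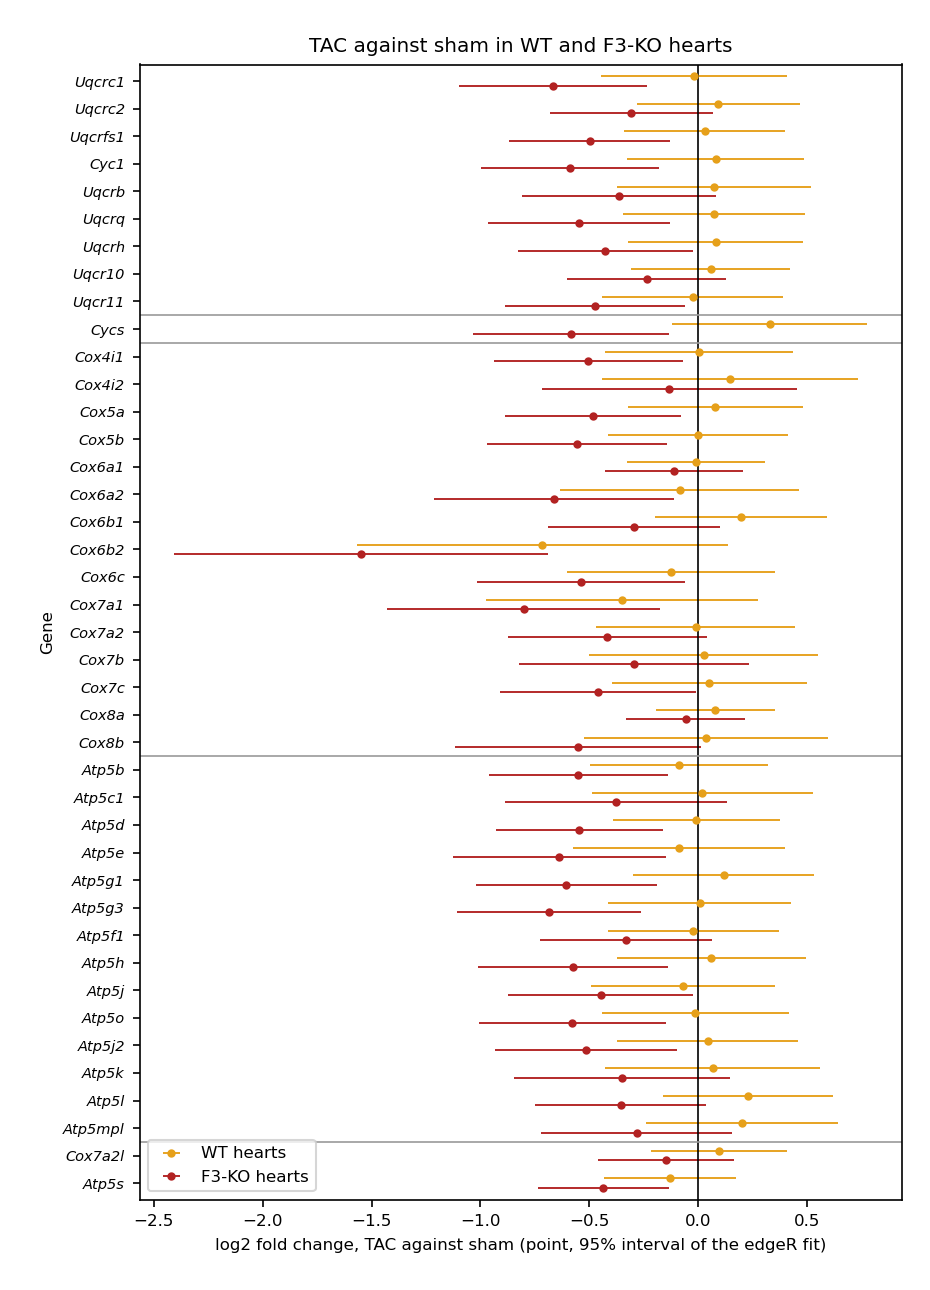
Fitted log2 fold change of TAC against sham with its 95% interval for 41 genes, in WT hearts (yellow) and F3-KO hearts (red). *Atp5a1* and *Atp5g2* are left out for their wide intervals. Red points lie left of 0 throughout and yellow points mostly near 0, and the intervals of the genotypes overlap for every gene shown except *Cycs*.

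The complexes gave like medians. In F3-KO hearts after TAC the median log2 fold change was -0.47 over the 9 complex III genes, -0.48 over the 15 complex IV genes and -0.53 over the 16 ATP synthase genes. In WT hearts it was 0.073, 0.0040 and 0.014. F3-KO against WT gave 0.15, 0.094 and 0.16 in sham hearts and -0.40, -0.35 and -0.35 after TAC. The spread of these medians between replicate hearts was 0.21, 0.22 and 0.24 (pooled SD), so the differences among complexes within a comparison were smaller than the spread between hearts.

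Within complex III the core proteins *Uqcrc1* and *Uqcrc2*, which face the matrix, stood near opposite ends of the range after TAC in F3-KO hearts. *Uqcrc1* was counted at 1462, 1069 and 1507 CPM in the WT sham hearts, 1605, 1418 and 1709 in F3-KO sham, 1128, 1526 and 1336 in WT TAC and 1040, 783 and 1161 in F3-KO TAC. All 3 F3-KO TAC hearts were below the 3 F3-KO sham hearts, while the WT groups overlapped. Its log2 fold change after TAC was -0.67 in F3-KO hearts (standard error 0.20, edgeR adjusted p = 0.179, DESeq2 adjusted p = 0.0248) and -0.017 in WT hearts (standard error 0.20).

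*Uqcrc2* was at 1223, 863 and 1002 CPM in WT sham, 1145, 1188 and 1322 in F3-KO sham, 1078, 1068 and 1151 in WT TAC and 1038, 794 and 1124 in F3-KO TAC hearts. The F3-KO groups did not overlap, by a narrow margin, and the log2 fold change was -0.31 (95% interval -0.68 to 0.070). Its transcript shares 507 identical bases with that of *Pdzd9*, so counts of the pair could have been split between them.

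*Cyc1* encodes cytochrome c1, the heme subunit of complex III that passes electrons to cytochrome c. It was at 938, 726 and 911 CPM in WT sham, 1086, 874 and 1062 in F3-KO sham, 787, 1046 and 893 in WT TAC and 753, 520 and 737 in F3-KO TAC hearts. The F3-KO TAC hearts lay below all hearts of both the F3-KO sham and the WT TAC group, and *Cyc1* was the only one of the 43 genes whose F3-KO and WT groups did not overlap downward after TAC (5.1% of all tested genes). Its log2 fold change was -0.59 for TAC against sham in F3-KO hearts (standard error 0.19, edgeR adjusted p = 0.184, DESeq2 adjusted p = 0.0382) and -0.44 for F3-KO against WT after TAC (standard error 0.19, edgeR adjusted p = 0.476). The Rieske iron-sulfur protein gene *Uqcrfs1* gave -0.50 and -0.40 in the same comparisons.

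The small complex III subunits ranged from -0.24 for *Uqcr10* to -0.55 for *Uqcrq* (log2, TAC against sham in F3-KO hearts). *Uqcr10* was at 367, 380 and 298 CPM in WT sham, 366, 309 and 331 in F3-KO sham, 292, 392 and 405 in WT TAC and 262, 259 and 334 in F3-KO TAC hearts, and its F3-KO groups overlapped. *Uqcr11* was at 472, 452 and 368 CPM in WT sham, 547, 389 and 490 in F3-KO sham, 339, 483 and 448 in WT TAC and 320, 299 and 408 in F3-KO TAC hearts, with the third F3-KO TAC heart above the lowest sham heart. Between these lay *Uqcrb*, a ubiquinone-binding subunit, at -0.36 and *Uqcrh*, the hinge protein next to cytochrome c1, at -0.42.

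*Cycs*, the electron carrier between complexes III and IV, had the largest log2 difference between the genotypes in sham hearts after *Atp5g2*. Its levels were 309, 269 and 242 CPM in WT sham, 354, 405 and 418 in F3-KO sham, 309, 377 and 344 in WT TAC and 342, 177 and 267 in F3-KO TAC hearts. Every F3-KO sham heart was above every WT sham heart, and every F3-KO TAC heart was below every F3-KO sham heart. The log2 fold change was 0.52 for F3-KO against WT in sham hearts (standard error 0.21, edgeR adjusted p = 0.737), -0.58 for TAC in F3-KO hearts (standard error 0.21, edgeR adjusted p = 0.204) and 0.33 for TAC in WT hearts (standard error 0.21). The difference between the last pair of values, the genotype by surgery interaction, was -0.91 (95% interval -1.55 to -0.27, edgeR unadjusted p = 0.00890, adjusted p = 0.954). *Cycs* has near-identical relatives in the genome, among them *Gm10053* (99.9% identity over 946 bases), so its counts are uncertain.

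For the interaction, which asks whether TAC acted differently in F3-KO than in WT hearts, edgeR called 0 of 43 genes and 0% of all tested genes by adjusted p. At a nominal p of 0.05 or less it gave 9 of 43 in the direction of a lower value in F3-KO hearts (2.18% of all tested genes), and DESeq2 called 0 of 43 by adjusted p (0.0313%). Those 9 were *Cycs*, *Cyc1*, *Uqcrc1*, *Uqcrq*, *Uqcrfs1*, *Atp5g1*, *Atp5g3*, *Atp5h* and *Atp5l*, and none of them was a complex IV gene. *Cox5a* and *Cox5b* of complex IV were just over that threshold (edgeR unadjusted p = 0.0525 and 0.0589). The interaction medians were alike, -0.51 for complex III, -0.49 for complex IV and -0.54 for the ATP synthase. The median over the 43 genes was -0.51, beside 0.03 over all tested genes.

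Complex IV held the pairs of isoforms. *Cox6a2*, the muscle form of subunit 6a, was at 2418, 2916 and 2715 CPM in WT sham, 2820, 2246 and 2745 in F3-KO sham, 1740, 2643 and 3216 in WT TAC and 1471, 1252 and 2211 in F3-KO TAC hearts. All F3-KO TAC hearts were below the F3-KO sham hearts, with the first pair far below and the third just under. Its log2 fold change was -0.66 (standard error 0.25, edgeR adjusted p = 0.223), and after TAC the F3-KO hearts stood at -0.62 against WT (standard error 0.25, edgeR adjusted p = 0.474), the lowest value of any member in that comparison. The ubiquitous *Cox6a1* was at 106, 118 and 109 CPM in WT sham, 129, 101 and 103 in F3-KO sham, 108, 123 and 100 in WT TAC and 118, 104 and 85.6 in F3-KO TAC hearts, with overlapping groups and a log2 fold change of -0.11 (95% interval -0.43 to 0.21) in F3-KO hearts.

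*Cox7a1*, the muscle form of subunit 7a with 7 CpG in its promoter window, spread widely even among sham hearts, at 681, 448 and 318 CPM in WT sham and 546, 527 and 656 in F3-KO sham. It was at 278, 491 and 368 CPM in WT TAC and 302, 262 and 428 in F3-KO TAC hearts. The WT groups overlapped and the F3-KO groups did not, with log2 fold changes of -0.35 (standard error 0.29) and -0.80 (standard error 0.29, edgeR adjusted p = 0.210). Its partner *Cox7a2* was at 280, 328 and 239 CPM in WT sham, 307, 245 and 312 in F3-KO sham, 209, 286 and 346 in WT TAC and 200, 182 and 266 in F3-KO TAC hearts, and its log2 fold change in F3-KO hearts was -0.42 (95% interval -0.87 to 0.042).

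*Cox8b*, the muscle form of subunit 8 with 2 CpG in its promoter window, was at 461, 474 and 264 CPM in WT sham, 503, 412 and 495 in F3-KO sham, 313, 457 and 461 in WT TAC and 265, 266 and 430 in F3-KO TAC hearts. One WT sham heart was as low as the low F3-KO TAC hearts, and the F3-KO groups overlapped. Its log2 fold change in F3-KO hearts was -0.55 (standard error 0.26, edgeR adjusted p = 0.299). The ubiquitous *Cox8a* varied little over the 12 hearts, at 174, 195 and 173 CPM in WT sham, 193, 180 and 197 in F3-KO sham, 175, 193 and 205 in WT TAC and 157, 200 and 191 in F3-KO TAC hearts, with a log2 fold change of -0.056 (95% interval -0.33 to 0.22).

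Over the 3 muscle isoforms the median log2 fold change after TAC in F3-KO hearts was -0.66, and over the 6 genes held as ubiquitous forms (*Cox4i1*, *Cox6a1*, *Cox6b1*, *Cox7a2*, *Cox7b* and *Cox8a*) it was -0.29. The ratio of the isoforms within a heart does not depend on library size and was tested over genotypes or surgeries as strata with a two-sided exact permutation test (400 arrangements, smallest possible p 0.005) and adjustment over 12 such tests. Of the 12 none passed, with the lowest adjusted p at 0.18. Over 12 tests a single ratio at the smallest possible p would not pass after adjustment, so the result does not show that the ratios stayed the same.

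The ratio of *Cox6a2* to *Cox6a1* counts was 22.7, 24.6 and 24.98 in WT sham hearts, 21.9, 22.3 and 26.7 in F3-KO sham, 16.1, 21.5 and 32.1 in WT TAC and 12.4, 12.05 and 25.8 in F3-KO TAC hearts. F3-KO TAC hearts 1 and 2 and WT TAC heart 1 were the lowest, and WT TAC heart 3 was the highest. TAC against sham within genotype differed by -0.35 on the log2 scale (exact permutation p = 0.18, adjusted p = 0.351), made up of -0.11 (standard error 0.29) in WT and -0.59 (standard error 0.37) in F3-KO hearts.

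For *Cox7a1* to *Cox7a2* the ratio was 2.43, 1.37 and 1.33 in WT sham, 1.78, 2.15 and 2.10 in F3-KO sham, 1.33, 1.72 and 1.06 in WT TAC and 1.51, 1.44 and 1.61 in F3-KO TAC hearts. The F3-KO TAC hearts were all below the F3-KO sham hearts and the WT groups overlapped. The log2 difference was -0.34 (exact permutation p = 0.07, adjusted p = 0.225), from -0.29 (standard error 0.35) in WT and -0.40 (standard error 0.097) in F3-KO hearts.

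For *Cox8b* to *Cox8a* it was 2.65, 2.43 and 1.53 in WT sham, 2.61, 2.29 and 2.52 in F3-KO sham, 1.79, 2.37 and 2.25 in WT TAC and 1.69, 1.33 and 2.25 in F3-KO TAC hearts. Again the F3-KO groups were apart and the WT groups overlapped. The log2 difference was -0.27 (exact permutation p = 0.17, adjusted p = 0.351), from -0.016 (standard error 0.28) in WT and -0.52 (standard error 0.23) in F3-KO hearts. With 3 hearts against 3, an exact test within a genotype cannot go below 0.1. Between genotypes within surgery the log2 difference was -0.27 for *Cox6a2*/*Cox6a1*, 0.23 for *Cox7a1*/*Cox7a2* and -0.050 for *Cox8b*/*Cox8a* (exact permutation p = 0.25, 0.205 and 0.765).

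**Figure D3:**
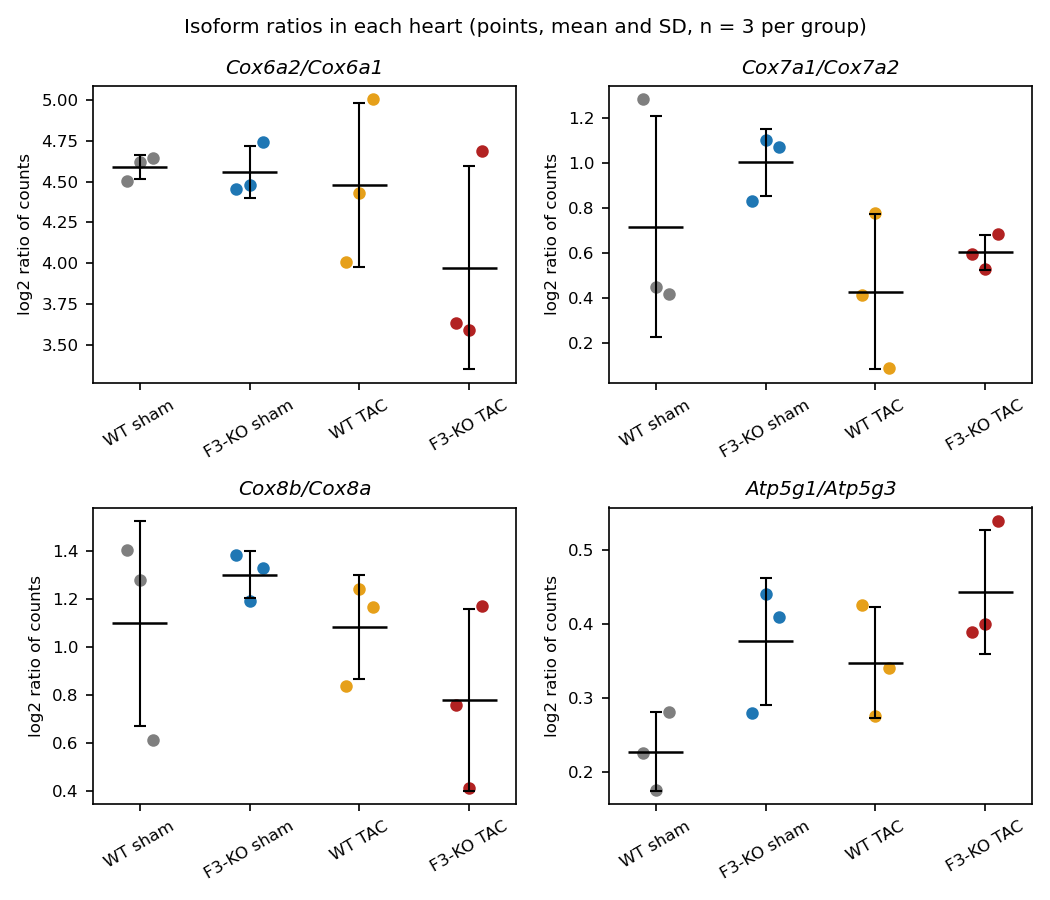
Log2 ratio of counts for 3 muscle to ubiquitous pairs of complex IV and for the c-subunit genes *Atp5g1* and *Atp5g3*, in each heart (points) with the mean and SD of each group of 3. For *Cox7a1*/*Cox7a2* and *Cox8b*/*Cox8a* the F3-KO TAC hearts lie below the F3-KO sham hearts, and for *Cox6a2*/*Cox6a1* the third F3-KO TAC heart lies with the sham hearts.

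*Cox4i1* and *Cox4i2* are forms of the subunit that tunes complex IV to the ATP level, and *Cox4i2* is known mainly from lung. *Cox4i1* was at 1508, 1506 and 1391 CPM in WT sham, 1641, 1339 and 1716 in F3-KO sham, 1136, 1608 and 1672 in WT TAC and 954, 969 and 1389 in F3-KO TAC hearts, with a log2 fold change of -0.50 in F3-KO hearts (standard error 0.20, edgeR adjusted p = 0.232). *Cox4i2* was low, at 4.76, 8.98 and 6.79 CPM in WT sham, 6.15, 7.70 and 7.88 in F3-KO sham, 8.47, 7.49 and 6.80 in WT TAC and 9.11, 5.36 and 5.36 in F3-KO TAC hearts, and overlapped in all comparisons. The log2 ratio of the pair was higher after TAC by 0.28 (exact permutation p = 0.325, adjusted p = 0.433).

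*Cox6b2*, a form of subunit 6b best known from testis, gave the lowest fold change of the complex although it was barely expressed. Its levels were 2.91, 2.20 and 2.46 CPM in WT sham, 3.41, 2.33 and 4.03 in F3-KO sham, 1.57, 1.23 and 1.80 in WT TAC and 0.987, 0.638 and 1.73 in F3-KO TAC hearts. The TAC hearts were below the sham hearts in both genotypes, and in WT hearts it was the only member to lie apart downward (4.43% of all tested genes). The log2 fold change was -1.55 in F3-KO hearts (standard error 0.39, edgeR adjusted p = 0.175, DESeq2 adjusted p = 0.0285) and -0.72 in WT hearts (standard error 0.39), resting on 10 to 44 counts per heart. The ubiquitous *Cox6b1* was at 784, 748 and 561 CPM in WT sham, 853, 743 and 897 in F3-KO sham, 709, 853 and 841 in WT TAC and 627, 577 and 826 in F3-KO TAC hearts, with a log2 fold change of -0.30 (95% interval -0.69 to 0.099) in F3-KO hearts.

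The single-gene subunits of complex IV, *Cox5a*, *Cox5b*, *Cox6c* and *Cox7c*, had log2 fold changes of -0.48, -0.56, -0.54 and -0.46 after TAC in F3-KO hearts, and the F3-KO groups of *Cox5a* and *Cox5b* did not overlap. *Cox7b* was at -0.29 (95% interval -0.82 to 0.23). *Cox7a2l*, which joins complexes III and IV into supercomplexes, was at -0.15 (95% interval -0.46 to 0.16).

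In the ATP synthase, the genes of the catalytic head and central stalk other than *Atp5a1* ranged from -0.38 to -0.64 after TAC in F3-KO hearts (log2). *Atp5b* was at 7678, 6035 and 7091 CPM in WT sham, 7387, 6760 and 8095 in F3-KO sham, 5544, 6992 and 7061 in WT TAC and 4674, 4398 and 6122 in F3-KO TAC hearts. The F3-KO groups were apart, with a log2 fold change of -0.55 (standard error 0.19, edgeR adjusted p = 0.198, DESeq2 adjusted p = 0.0321). Of the central stalk, *Atp5c1* (gamma) was at -0.38, *Atp5d* (delta) at -0.54 and *Atp5e* (epsilon) at -0.64.

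*Atp5e* had the lowest value of the well-expressed ATP synthase genes for F3-KO against WT after TAC. It was at 233, 281 and 207 CPM in WT sham, 276, 190 and 236 in F3-KO sham, 167, 240 and 272 in WT TAC and 131, 128 and 193 in F3-KO TAC hearts. F3-KO TAC hearts 1 and 2 were the lowest of the 12, and heart 3 lay between WT TAC hearts 1 and 2. The log2 fold change was -0.59 (standard error 0.22, edgeR adjusted p = 0.473).

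*Atp5a1*, the alpha subunit, which pairs with beta in every ATP synthase head, was listed at 2.04, 1.19 and 4.83 CPM in WT sham, 5.16, 1.56 and 3.85 in F3-KO sham, 1.65, 0 and 0 in WT TAC and 4.71, 1.34 and 1.73 in F3-KO TAC hearts. It was listed at 0 in WT TAC hearts 2 and 3 and at no more than 62 counts in any heart, while *Atp5b* had at least 61580. The low listed value may therefore not give the level of the transcript. Without *Atp5a1* and *Atp5g2* the fitted fold change was below 0 for 41 of 41 members after TAC in F3-KO hearts, 15 of 41 after TAC in WT hearts and 41 of 41 for F3-KO against WT after TAC. The ATP synthase medians over the other 14 genes were -0.53, 0.014 and -0.36 in these comparisons. No mitochondrially encoded subunit was found in the table under the 12 names searched.

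The proton-driven ring is built from 1 protein, subunit c, encoded by *Atp5g1*, *Atp5g2* and *Atp5g3*. *Atp5g1* was at 1016, 1007 and 1133 CPM in WT sham, 1379, 1155 and 1440 in F3-KO sham, 969, 1269 and 1190 in WT TAC and 906, 647 and 1061 in F3-KO TAC hearts. It was higher in every F3-KO sham heart than in every WT sham heart and lower in every F3-KO TAC than F3-KO sham heart, with log2 fold changes of 0.33 (standard error 0.19, edgeR adjusted p = 0.979) and -0.60 (standard error 0.19, edgeR adjusted p = 0.184, DESeq2 adjusted p = 0.0366). *Atp5g3* was at 869, 892 and 932 CPM in WT sham, 1136, 851 and 1084 in F3-KO sham, 722, 1048 and 939 in WT TAC and 692, 490 and 730 in F3-KO TAC hearts. Its F3-KO groups were apart, with the log2 fold change nearest to the adjusted threshold among well-expressed members, -0.68 (standard error 0.19, edgeR adjusted p = 0.175, DESeq2 adjusted p = 0.0202).

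*Atp5g2* behaved unlike the other genes, with a high level in 3 F3-KO hearts and almost none elsewhere. It was at 0.874, 1.38 and 1.80 CPM in WT sham, 53.9, 62.3 and 2.02 in F3-KO sham, 2.35, 2.73 and 2.10 in WT TAC and 1.82, 58.0 and 2.47 in F3-KO TAC hearts. F3-KO sham hearts 1 and 2 and F3-KO TAC heart 2 were high, and the other 3 F3-KO hearts were in the range of the WT hearts. The log2 fold change for F3-KO against WT was 4.84 in sham hearts (95% interval 1.75 to 7.94, edgeR adjusted p = 0.437, DESeq2 adjusted p = 0.0332) and 3.12 after TAC (95% interval 0.28 to 5.96, edgeR adjusted p = 0.474). Its transcript is identical to *Gm10175* over 645 bases and to the pseudogene *Gm10231* over 441 bases, neither of which is listed in the table, so the source of these counts is uncertain. In WT hearts it was the only member to lie apart upward after TAC (4.67% of all tested genes). This rested on 9, 15 and 22 counts in WT sham and 30, 31 and 21 in WT TAC hearts, which overlapped before scaling. The fitted log2 fold change was 0.81 (standard error 1.55). At its highest *Atp5g2* was 0.118 of the *Atp5g3* count (F3-KO TAC heart 2).

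**Figure D4:**
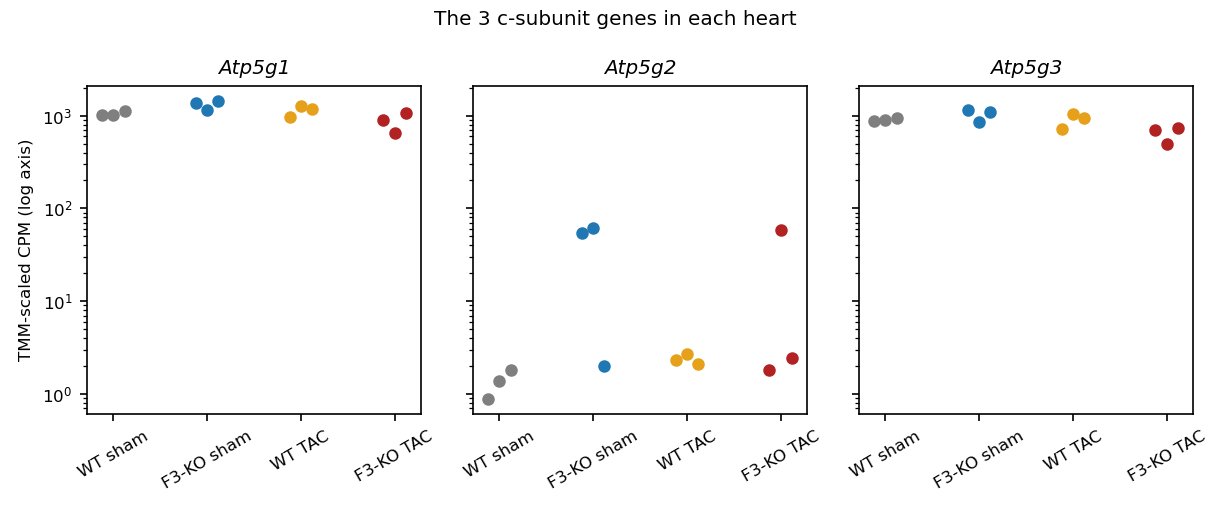
CPM of the 3 genes for subunit c in each heart on a log axis, by group. *Atp5g1* and *Atp5g3* lie close together in all hearts, and *Atp5g2* is between 53.9 and 62.3 CPM in 3 F3-KO hearts and between 0.87 and 2.73 CPM in the other 9 hearts.

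The ratio of *Atp5g1* to *Atp5g3* counts was 1.17, 1.13 and 1.22 in WT sham, 1.21, 1.36 and 1.33 in F3-KO sham, 1.34, 1.21 and 1.27 in WT TAC and 1.31, 1.32 and 1.45 in F3-KO TAC hearts. Its range was narrow and the groups overlapped within each surgery. F3-KO against WT differed by 0.12 on the log2 scale (exact permutation p = 0.03, adjusted p = 0.18) and TAC against sham by 0.093 (exact permutation p = 0.075, adjusted p = 0.225). *Atp5g1* shares 411 bases at 99.8% identity with the pseudogene *Gm10039*. For *Atp5g2* to *Atp5g3* the difference was 2.79 between genotypes (exact permutation p = 0.03, adjusted p = 0.18), carried by the 3 high hearts.

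Of the stalk that holds the head still, *Atp5o* was at -0.58, *Atp5h* at -0.57, *Atp5j* at -0.45 and *Atp5f1* at -0.33 after TAC in F3-KO hearts (log2), and the F3-KO groups of the first 3 were apart. The small membrane subunits *Atp5j2*, *Atp5l*, *Atp5k* and *Atp5mpl* were at -0.51, -0.36, -0.35 and -0.28. *Atp5mpl*, with the smallest difference in the complex, was at 249, 249 and 165 CPM in WT sham, 245, 225 and 272 in F3-KO sham, 204, 260 and 299 in WT TAC and 197, 168 and 246 in F3-KO TAC hearts, with overlapping groups. *Atp5s*, a factor associated with the enzyme that is expressed far below the subunits, was at -0.43 (standard error 0.14, edgeR adjusted p = 0.184), and its F3-KO groups were apart.

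Between genotypes, edgeR called 0 of 43 genes by adjusted p in sham hearts (0.106% of all tested genes) and 0 after TAC (0.078%). At a nominal p of 0.05 or less, *Cycs* and *Atp5g2* were higher in F3-KO than in WT sham hearts (2.81% of all tested genes were higher), and 3 genes were apart upward, *Cycs*, *Atp5g1* and *Atp5g2* (6.78%). After TAC 7 were lower in F3-KO hearts (4.16%), namely *Cox6a2*, *Atp5e*, *Atp5g3*, *Cyc1*, *Atp5d*, *Uqcrfs1* and *Uqcrh*, and *Atp5g2* was higher (5.84%). This count of 7 was 0 without F3-KO TAC heart 2 or without WT TAC heart 2 or 3, and 3 without F3-KO TAC heart 1. It was 24 without WT TAC heart 1 and 30 without F3-KO TAC heart 3. The share of all tested genes at that p in these fits is not given. By adjusted p edgeR called 103 of all tested genes without F3-KO TAC heart 3, beside 11 with all hearts. It called 10 without WT TAC heart 1 and 6 to 21 in the other fits named here. By adjusted p DESeq2 called *Atp5g2* alone in sham hearts (0.362% of the genes it adjusted were called higher) and 0 of 43 after TAC (0.594% in either direction). Limma-trend called 0 of 43 in both, where 0.177% and 0.0993% of all tested genes were called.

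Averaged over both genotypes, TAC against sham gave 0 of 43 called genes by edgeR's adjusted p (0.078% of all tested genes) and 8 lower at a nominal p of 0.05 or less (6.52%), with a median of -0.23. Averaged over both surgeries, F3-KO against WT gave 0 called genes (0.412%) and 1 higher at a nominal p of 0.05 or less, *Atp5g2* (5.37%), with a median of -0.084. DESeq2 called *Cox6b2* lower in the first (0.994%) and *Atp5g2* higher in the second (0.673%).

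Markers of other cell types differed between the hearts, some in the same hearts as the subunits. The 8 fibroblast markers, none of which was at 0, summed to 737 to 1619 CPM in WT sham and 1039 to 1429 in F3-KO sham hearts. They summed to 3391, 1492 and 1368 CPM in WT TAC and to 4417, 7805 and 1539 CPM in F3-KO TAC hearts, so the 3 hearts with low subunit medians held the 3 highest fibroblast sums. Most of the excess was in the matrix genes *Col1a1*, *Col1a2*, *Col3a1* and *Postn*, with *Postn* at 370, 583 and 1331 CPM in those 3 hearts and at 16.9 to 62.6 CPM in the other 9. *Dcn*, the most abundant of the 8, did not follow, with 931, 793 and 1178 CPM in the 3 low hearts, 534, 1004 and 988 in the other TAC hearts and up to 1202 in a WT sham heart. *Pdgfra*, at 69.3, 55.5 and 63.3 CPM in the low hearts, was likewise within reach of a WT sham heart at 64.6. The 10 cardiomyocyte markers were at 62634 to 71907 CPM in WT sham, 69555 to 79280 in F3-KO sham, 58498, 85140 and 77137 in WT TAC and 65205, 56926 and 62222 in F3-KO TAC hearts. F3-KO TAC heart 1, low in subunits, held the highest of these 3 sums, above WT sham heart 2. This order rested on *Actc1*, at 17140, 13760 and 6646 CPM in the F3-KO TAC hearts and 8021 CPM in WT sham heart 2. Over the other cardiomyocyte markers F3-KO TAC heart 1 lay below F3-KO TAC heart 3 and below WT sham heart 2.

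The 8 macrophage markers summed to 307 to 673 CPM in WT sham, 442 to 521 in F3-KO sham, 876, 672 and 532 in WT TAC and 1070, 855 and 665 in F3-KO TAC hearts. The 8 endothelial markers summed to 2632, 2670 and 2209 CPM in the 3 hearts with low subunit medians, 1276 to 1682 in the other TAC hearts and 1441 to 2392 in sham hearts. The 5 atrial markers, led by *Nppa*, which the pressure-loaded ventricle also expresses, summed to at most 359 CPM in sham hearts, to 1171, 160 and 597 CPM in the WT hearts after TAC and to 198, 4242 and 1008 CPM in the F3-KO hearts after TAC. These sums did not follow the subunit medians in F3-KO TAC hearts 1 and 3. Below *Nppa*, F3-KO sham heart 2 and F3-KO TAC heart 2 stood out. *Myl4* was at 14.2 and 15.1 CPM in them and at most 4.93 in the other hearts. *Myl7* was at 8.15 and 9.32 CPM, against at most 2.67, and *Sln* at 1.65 and 2.51, against at most 0.239. *Nr2f2* did not stand out, at 25.9 and 26.1 CPM, with 32.8 in WT sham heart 2. The share of atrial tissue was not tested. Red blood cell markers varied from 299 to 4493 CPM over the 12 hearts. White adipocyte markers stayed at or below 1.57 CPM and T cell markers at or below 3.93 CPM in all hearts.

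**Figure D5:**
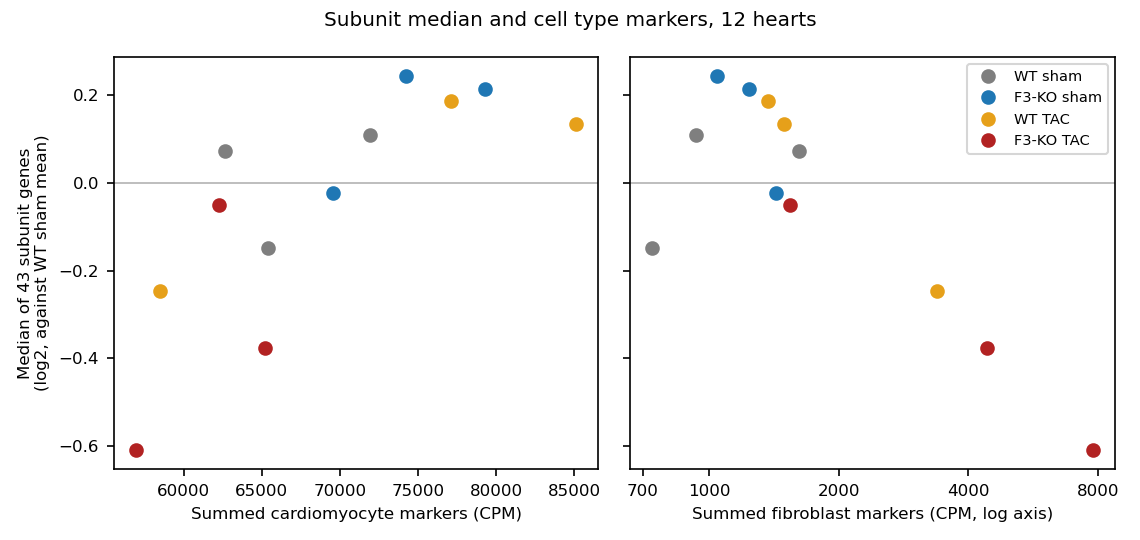
Median log2 level of the 43 genes in each heart relative to the WT sham mean (vertical axis) against the summed CPM of cardiomyocyte markers (left) and of fibroblast markers (right, log axis). The 3 hearts with medians of -0.25, -0.38 and -0.61 (WT TAC heart 1 and F3-KO TAC hearts 1 and 2) are the 3 with the highest fibroblast sums, 3391 CPM or more.

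When the counts of cardiomyocyte markers were used as library size, the median after TAC in F3-KO hearts was -0.10 for complex III, -0.12 for complex IV and -0.16 for the ATP synthase, and 31 of 43 genes were below 0. For F3-KO against WT after TAC the medians became -0.062, -0.0081 and -0.0073. This scaling moved the median of all tested genes to 0.39 and 0.35 in these comparisons, and to -0.14 for TAC in WT hearts and -0.19 for F3-KO against WT in sham hearts. The medians after TAC in F3-KO hearts, and those for F3-KO against WT after TAC, were thus closer to 0 relative to heart muscle markers. A change of library size moves all genes of a comparison by about the same amount. The distance of the members from the median of all tested genes is therefore nearly fixed under either scaling and tests nothing. The part of cell composition in the difference was not tested.

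Genes of related processes, taken from lists, were counted the same way for TAC against sham in F3-KO hearts, where 47.1% of all tested genes were below 0 and 6.47% were lower and 10.6% higher at a nominal p of 0.05 or less. Of 39 tested complex I genes all 39 were below 0, 27 at a nominal p of 0.05 or less, with a median of -0.47, from -0.74 for *Ndufa13* to -0.11 for *Ndufa4l2*. Of the 4 complex II genes all were below 0 and 3 reached that p, with *Sdhc* the lowest at -0.57 and *Sdhd* the highest at -0.30. Assembly factors of complexes III and IV and of the ATP synthase had a smaller median of -0.27, with 32 of 34 below 0 and 9 lower and 1 higher at that p, from *Cox10*, a heme maturation enzyme, at -0.48 to *Cox19* at 0.41.

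ATP export and transfer (adenine nucleotide and phosphate carriers, porins and creatine kinases) had a median of -0.39 over 8 genes, 4 of them lower at a nominal p of 0.05 or less, from *Ckm* at -0.60 to *Slc25a5* at 0.036. The 15 transcription regulators of mitochondrial genes had a median of -0.10, with 2 lower at that p, from *Ppara* at -0.54 to *Gabpb1* at 0.11. EdgeR called no gene of these lists by adjusted p in this comparison, and DESeq2 called 5 complex I genes and 2 ATP export genes lower (1.11% of the genes it adjusted). In WT hearts the medians of the 5 lists were 0.03, -0.04, 0.01, 0.05 and -0.14 in the order complex I, complex II, assembly, export and regulators.

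The genes whose log2 CPM was most like that of a muscle isoform over the 12 hearts (Pearson's r over all tested genes, a description, since hearts of a group share their treatment) were *Gstm7* (0.985), *Vegfb* (0.981) and *Chchd2* (0.977) for *Cox6a2*, *Rmnd1* (0.919), *Cep128* (0.906) and *Ces1d* (0.906) for *Cox7a1*, and *Atp5j2* (0.973), *Ndufb9* (0.968) and *Ndufb4* (0.964) for *Cox8b*. Only the list for *Cox8b* held another of the 43 genes.

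Transcripts of 19 of the 43 genes matched another gene at 95% identity or more over at least 150 bases, 34 of the 45 matches being pseudogenes, and 3 of the 45 partners (*Wdr77*, *Emc8* and *Pdzd9*) were in the count table. Counts of those 19 genes, among them *Cox4i1*, *Cox5b*, *Cox6c*, *Cox7c*, *Atp5c1*, *Atp5l*, *Uqcrb* and *Cycs*, are uncertain where reads were split or dropped. None of the 6 isoforms *Cox6a1*, *Cox6a2*, *Cox7a1*, *Cox7a2*, *Cox8a* and *Cox8b* had such a match. Replicate spread exceeded that of all tested genes in F3-KO TAC hearts and was below it in the other groups. The median coefficient of variation was 14%, 10.8%, 16.3% and 21.0% over the members in WT sham, F3-KO sham, WT TAC and F3-KO TAC hearts, beside 15.8%, 11.3%, 17.4% and 16.7% over all tested genes.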

How the data were processed

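RNA was sequenced from 12 hearts, 3 per group, which the labels give as separate samples without naming a batch, so p-values measure the spread between these samples. Per the study's methods, the authors filtered reads with SOAPnuke (adapters, low quality) before mapping them with HISAT2 and STAR, and the submitters' processing notes name HISAT2 2.0.4 and STAR 2.3.0. The counting tool and the annotation are not given in the sources used here, and the notes list the builds mm8 and mm9 with no role. The authors deposited estimated counts (expected counts) per gene, not normalized, of which 40.6% were not whole. They were rounded to whole numbers for testing. A method that shares reads among similar genes can move counts between copies. The separate tables of 11 hearts held the same values as the joint table, and the table of WT sham heart 2 breaks off and was not used.

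Genes were kept by filterByExpr (minimum count 10, 14094 genes), scaled with TMM and fitted with edgeR 4.0.16 (R 4.3.3) as 4 groups, with contrasts for TAC, genotype and their interaction and Benjamini-Hochberg adjustment over all tested genes. CPM are TMM-scaled, except that marker sums and the worth of 3 counts use library totals. Log2 CPM used a prior count of 2. The biological coefficient of variation was 0.232, with 8 residual degrees of freedom. Isoform ratios used 0.5 added to each count and exact permutation tests. Near-identical transcripts were sought with blastn 2.17.0 in GENCODE M21. Tested on simulated counts for F3-KO against WT after TAC (13907 genes), the fit recovered 97 of 97 genes changed 4-fold, 65 of 99 changed 2-fold, and called 10 unchanged genes. The simulated counts had the same biological coefficient of variation for every gene, below the 0.232 of the data, and independent hearts. The share recovered may therefore be lower in these hearts. Counting floors cover counting error only.

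The genes, lists and tests were chosen with earlier results of these data known. Any member could be named, with values in every heart for the isoform pairs, the c-subunit genes, *Cycs*, *Cyc1* and the highest and lowest gene of each complex in each comparison. *Atp5b*, the TATAAA search, the alternatives for counts at a nominal p and the medians without *Atp5a1* and *Atp5g2* were added after the values were seen. Alternatives were DESeq2 1.42.0, limma-trend (limma 3.58.1), other scalings and filters, only the 6 hearts compared, a replicate block and each heart left out. The replicate numbers were not taken as pairs.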

Additional observations from a re-analysis of the deposited data

How the results depend on the processing

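In edgeR, no subunit gene was called by adjusted p in any of the 7 comparisons with DESeq2 size factors, library totals alone, other filters or the replicate block, nor with limma-trend, and none in the 4 pairwise comparisons with only the 6 hearts compared. DESeq2 called 7 for TAC in F3-KO hearts and 1 each for F3-KO in sham hearts, TAC over both genotypes and F3-KO over both surgeries. A nominal p of 0.05 or less gave 25, 2, 8 and 1 in those comparisons, 8 for F3-KO against WT after TAC and 9 for the interaction. Leaving out single hearts gave 0 to 8 calls for TAC in F3-KO hearts and 0 to 2 for TAC over both genotypes, and 0 elsewhere. The 8 came without F3-KO TAC heart 3, where 778 of all tested genes were called.

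Genes lower at a nominal p of 0.05 or less were 0 to 1 for TAC in WT hearts when single hearts were left out and 1 with DESeq2, limma-trend, no filter or the replicate block, 9 to 34 for TAC in F3-KO hearts, and 0 to 30 for F3-KO against WT after TAC, with 18 by DESeq2 and 1 with only the 6 hearts compared. Genes apart downward were 1 to 3, 21 to 38, 0 to 1 (sham) and 1 to 33 in the same order of comparisons. Such a count can only stay or rise when a heart is left out. The shares of all tested genes are not given for these ranges.

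Cardiomyocyte counts as library size moved the medians for TAC in F3-KO hearts to -0.10, -0.12 and -0.16 (complexes III, IV, ATP synthase) and for F3-KO against WT after TAC to -0.062, -0.0081 and -0.0073. The median over all members turned from 0.03 to -0.15 for TAC in WT hearts and from 0.14 to -0.051 between sham hearts with that scaling. Left-out hearts kept the medians of the complexes for TAC in F3-KO hearts between -0.68 and -0.34. For F3-KO against WT after TAC the medians of the complexes stayed between -0.55 and -0.18. All other alternatives stayed within 1 SD. Library totals alone shifted the median of all tested genes to 0.12 in both. No isoform ratio passed in any alternative (lowest adjusted p 0.12), where a single ratio could not pass alone either. With the exact test of the replicate block the smallest possible p was 0.03125. The direction of *Atp5g2*/*Atp5g3* for TAC turned to 0.0088 with no added count and ranged from -0.88 to 0.49 over left-out hearts, *Cox4i2*/*Cox4i1* for genotype from -0.069 to 0.26 and *Cox8b*/*Cox8a* for genotype from -0.17 to 0.042. The causes were not tested.

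Same-numbered hearts did not vary together throughout (4 of 12 pairs with a correlation above 0.1, range -0.14 to 0.36, and 6 of 12 best with their own number). For F3-KO against WT after TAC the correlations of replicates 1, 2 and 3 were 0.17, 0.061 and 0.36, and their source was not tested. The replicate block gave 0 called genes in each comparison and adjusted p of 0.268 to 1 for the isoform ratios. At 3 hearts per group the simulated fit for F3-KO against WT after TAC recovered 65 of 99 changes of 2-fold. Smaller changes were not simulated, and the simulated spread was below that of the data, so the share may be lower in these hearts.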
